A study of Homo sapiens with 6 samples.

Results

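MicroRNA genes were examined in libraries labelled KD and libraries labelled CON of SU-DHL-4, an established B-cell lymphoma line of the germinal centre type. The labels give 3 samples of each group, all of the same line, and name no target gene, vector, clone or time point for KD. The title of the series concerns ZHX2, a zinc finger and homeobox protein, and its design text asks for pathways enriched between KD and CON cells. Members were selected on their name and on their measured level, not on a difference between KD and CON. The name had to begin with MIR followed by a digit or by LET7, host genes ending in HG included, and the value had to be above 0 in at least 2 of the 4 libraries used. Of 655 genes with such a name, 484 were members, out of 29489 genes in the table. They comprised 441 precursor genes, which are annotated hairpins of 50 to 180 bases, and 43 host genes. Host genes are long transcripts named as hosts of a microRNA, and a listed precursor lay inside 24 of the 43.

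MicroRNAs are cut from longer primary transcripts, most of them made by RNA polymerase II. The Microprocessor, built from DROSHA and DGCR8, releases a hairpin in the nucleus, XPO5 exports it, DICER1 trims it to a duplex, and an Argonaute protein keeps a single strand that pairs with messenger RNAs through its seed, bases 2 to 8. Many hairpins lie in introns of protein-coding genes and others in dedicated noncoding hosts. In B cells, miR-142, miR-155, miR-146a and the miR-17-92 cluster are the best known. The libraries were made from poly(A) RNA and fragmented. A value for a precursor gene therefore rests on pieces of a longer transcript that were assigned to the hairpin. How the counting assigned pieces shared with a surrounding gene is not given, so the value need not follow that transcript's level. A precursor value does not measure the mature microRNA, which has no poly(A) tail. In bulk libraries, fewer cells with a transcript and less of it per cell cannot be told apart.

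Mature sequences from RefSeq (GRCh38.p14) were matched by symbol for 411 of the 441 precursors. The sequences here are those whose hosts or precursors carried the differences described in the following paragraphs, written 5′ to 3′ with the seed in capitals. The first set belongs to dedicated host genes that differed between KD and CON.
hsa-miR-142-3p: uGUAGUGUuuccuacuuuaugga
hsa-miR-142-5p: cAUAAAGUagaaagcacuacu
hsa-miR-146a-5p: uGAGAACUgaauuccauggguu
hsa-miR-210-3p: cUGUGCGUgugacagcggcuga
hsa-miR-22-3p: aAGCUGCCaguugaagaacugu
hsa-miR-600: aCUUACAGacaagagccuugcuc

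The second set shows how the cluster of MIR17HG and the cluster inside MCM7 share seeds. The seed AAAGUGC was common to a pair of arms in each cluster, AUUGCAC to an arm in each, and GUGCAAA to a pair of arms of MIR17HG.
hsa-miR-17-5p: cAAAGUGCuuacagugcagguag
hsa-miR-20a-5p: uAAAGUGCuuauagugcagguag
hsa-miR-106b-5p: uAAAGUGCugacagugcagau
hsa-miR-93-5p: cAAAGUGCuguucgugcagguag
hsa-miR-92a-3p: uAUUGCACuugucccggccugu
hsa-miR-25-3p: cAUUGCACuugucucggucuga
hsa-miR-19a-3p: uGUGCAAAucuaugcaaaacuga
hsa-miR-19b-3p: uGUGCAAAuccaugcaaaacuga

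The third set lies inside other genes, at precursors whose change differed from that of the surrounding gene or was among the greatest.
hsa-miR-616-5p: aCUCAAAAcccuucagugacuu
hsa-miR-6775-5p: uCGGGGCAugggggagggaggcugg
hsa-miR-3153: gGGGAAAGcgaguagggacauuu
hsa-miR-6832-5p: aGUAGAGAggaaaaguuaggguc
hsa-miR-4489: uGGGGCUAgugaugcaggacg
hsa-miR-4751: aGAGGACCcguagcugcuagaagg
hsa-miR-1324: cCAGACAGaauucuaugcacuuuc

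Values were FPKM, fragments scaled by transcript length and by library total, so levels are per length, and how deeply a library was sequenced is unknown. In the replicate 1 columns a value was that of the averaged replicates 2 and 3 over a constant, 1.2 for KD in 29489 of 29489 genes and 1.1 for CON in 29488 (relative tolerance 1e-09), and these columns were not used. All results rest on replicates 2 and 3 of each group (n = 2). ZHX2 had 10.96 and 11.04 FPKM in KD, against 38.5 and 36.7 FPKM in CON. All 6 B cell and all 5 germinal centre markers were at 1 FPKM or more in every library. The B cell markers summed to 518 to 530 FPKM in KD and 711 to 721 FPKM in CON. CD79A and CD79B carried the lower sum, CD79A with 200 and 206 FPKM in KD, against 373 and 377 FPKM in CON, whereas MS4A1 had 117 and 124 FPKM in KD, against 86.4 and 86.4 FPKM in CON, and PAX5 and CD22 were at similar levels. The germinal centre markers summed to 260 to 263 FPKM in KD and 381 to 383 FPKM in CON. The T and NK cell markers summed to 0.881 to 0.968 FPKM in KD and 1.34 to 1.82 FPKM in CON, and the myeloid markers to 0.467 to 0.523 FPKM in KD and 0.0502 to 0.0542 FPKM in CON. The epithelial and fibroblast markers summed to 1.91 to 2.29 FPKM in KD and 3.44 to 3.45 FPKM in CON, most of it DCN. GNLY was at 0 in both KD libraries, and CD8A, LYZ and ITGAM in both CON libraries. Values were present for 4 of 6 T and NK cell, 4 of 6 myeloid and 2 of 6 epithelial and fibroblast markers. Whether other cells contribute to the microRNA values was not tested.

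Most members were barely above 0. The mean over the 4 libraries had a median of 0.125 FPKM in precursors, the highest being 59.9 FPKM, and a median of 0.232 FPKM in hosts, the highest being 10.5 FPKM. A value above 0 in all 4 libraries was held by 276 members, 247 of them precursors and 29 hosts. The 114 members just inside the rule, above 0 in exactly 2 libraries, had a median of 0.0934 FPKM and a highest value of 1.79 FPKM, that of MIR3142HG. The 171 genes just outside, above 0 in exactly 1 library, had a median of 0.0278 FPKM and a highest value of 0.374 FPKM.

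The test was limma on log2(FPKM + 1) over the whole table, for the 11916 genes that reached 1 FPKM in at least 2 libraries, with Benjamini-Hochberg adjusted p under 0.05 as the threshold. The filter left 70 members, 9 hosts and 61 precursors. Of these, 4 hosts and 4 precursors passed it through KD alone, with both CON libraries under 1 FPKM. Another 2 hosts and 6 precursors passed it through CON alone, with both KD libraries under 1 FPKM. Others had a single library at 1 FPKM in their lower group and needed the higher group to pass. Among them were MIRLET7A1HG, MIR3153, MIR4292 and MIR106B upward, and MIR3176 and MIR4520-1 downward. The difference of all these genes is not independent of the filter. In KD 23 of 70 members (32.9%) rose, beside 27.6% of all tested genes, and 15 (21.4%) fell, beside 31.1% of all tested genes. The median log2 change was 0.09 in members and -0.02 in all tested genes. A change of at least 1 on the log2 scale was called upward in 15 members (21.4%) and downward in 8 (11.4%), beside 2.91% and 2.25% of all tested genes. Precursor values also varied more between libraries of a group. Their median gap between replicates on the log2(FPKM + 1) scale was 0.354 in KD and 0.296 in CON, against 0.106 in KD and 0.0932 in CON in the 4873 other tested genes with a mean under 5 FPKM. Nothing in the labels says that the replicates came from separate cultures, so the p-values measure the spread between these libraries only, which may be technical.

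All 9 dedicated hosts that could be tested passed the test, 6 upward and 3 downward, beside 27.6% and 31.1% of all tested genes. MIR142HG fell the furthest, MIR3142HG was listed only in KD, and MIR17HG, MIR210HG, MIR22HG, MIRLET7A1HG and MIR600HG rose. MIR3142HG, MIR17HG, MIR210HG and MIR22HG reached the filter through the KD libraries alone, and MIR142HG and MIR4453HG through the CON libraries alone. These hosts could be tested only because of their level in a single group, and the count is a description of 9 of 43 hosts.

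MIR142HG (GENCODE v29, chr17:58330884-58332508, minus strand) carries miR-142, a microRNA of the blood lineages, in an exon. It had 0.298 and 0.472 FPKM in KD, against 8.21 and 6.69 FPKM in CON. Both KD libraries lay far below both CON libraries, 19.3-fold lower on the means. The log2 change was -2.61 (SE 0.124, limma adjusted p = 0.000213). TSPOAP1-AS1, which covers the host on the opposite strand, had 1.80 and 2.22 FPKM in KD, against 3.13 and 2.91 FPKM in CON, a fall of a smaller size (log2 change -0.42, limma adjusted p = 0.0183). The precursor MIR142 itself was at 0.000922 to 0.00277 FPKM in KD and 0.00268 to 0.00275 FPKM in CON. These levels are too low to show whether the hairpin followed its host. The host passed the filter through CON only.

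MIR3142HG (chr5:160438594-160487426, plus strand) contains miR-146a, which restrains NF-kB signalling through TRAF6 and IRAK1. It had 3.62 and 3.53 FPKM in KD and was listed at 0 in both CON libraries, so no fold is given. The log2 change of 2.19 (SE 0.0933, limma adjusted p = 0.000174) depends on the pseudocount of 1. The exonic precursor MIR146A ran the other way, with 0.106 and 0.00547 FPKM in KD, against 0.477 and 0.395 FPKM in CON. These levels were under the filter. With no filter on low values, limma called MIR146A lower (log2 change -0.45, adjusted p = 0.0383), while its host was higher.

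MIR17HG (chr13:91347820-91354579, plus strand), the host of the miR-17-92 cluster and a target of MYC, had 2.46 and 2.40 FPKM in KD, against 0.590 and 0.142 FPKM in CON. The CON libraries differed from each other but both stayed below KD (log2 change 1.35, SE 0.179, limma adjusted p = 0.00323). All 6 precursors of the cluster lie in an exon of the host, and none exceeded 0.0692 FPKM in any library. Levels this low cannot show whether the hairpins followed the rise of the host.

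MIR210HG (chr11:565660-568457, minus strand), host of the hypoxia-linked miR-210, had 2.84 and 1.94 FPKM in KD, against 0.496 and 0.538 FPKM in CON (log2 change 1.15, SE 0.152, limma adjusted p = 0.00322). Its intronic precursor MIR210 was listed in the same direction, at 0.851 and 0.399 FPKM in KD, against 0 and 0.0191 FPKM in CON, too low to be tested. MIR22HG (chr17:1711493-1717174, minus strand), host of miR-22, had 1.78 and 1.37 FPKM in KD, against 0.171 and 0.164 FPKM in CON (log2 change 1.14, SE 0.130, limma adjusted p = 0.00206). WDR81, which overlaps 652 bases of MIR22HG on the opposite strand, was not called (log2 change 0.04).

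MIRLET7A1HG (chr9:94176458-94177892, plus strand) is named for let-7a, which represses RAS and MYC family messages. It had 2.33 and 2.53 FPKM in KD, against 0.719 and 1.05 FPKM in CON (log2 change 0.87, SE 0.120, limma adjusted p = 0.00361). MIR600HG (chr9:123109494-123115477, minus strand) was the most abundant host, with 13.0 and 14.4 FPKM in KD, against 7.35 and 7.29 FPKM in CON (log2 change 0.82, SE 0.0607, limma adjusted p = 0.000629). It overlaps STRBP on the same strand over 5978 of its 5984 bases, and STRBP fell in KD (log2 change -0.37, limma adjusted p = 0.000917). The listed values of the host and the overlapping gene moved in opposite directions. Reads from these shared bases cannot be assigned to either gene by strand.

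MIR4453HG (chr4:152536264-152539263, plus strand) fell, with 0.840 and 0.670 FPKM in KD, against 2.68 and 2.29 FPKM in CON (log2 change -0.99, SE 0.109, limma adjusted p = 0.00187). MIR3150BHG on chromosome 8 had 1.31 and 1.59 FPKM in KD, against 2.42 and 2.57 FPKM in CON (log2 change -0.51, SE 0.0944, limma adjusted p = 0.00888). Its call was lost with no filter on low values and without CON replicate 3. NDUFAF6, an assembly factor of respiratory complex I, covers it on the opposite strand and fell by a like amount, with 1.57 and 1.73 FPKM in KD, against 2.45 and 2.72 FPKM in CON (log2 change -0.44, limma adjusted p = 0.0111). The libraries were made with dUTP marking of the second strand, but no source used here gives the strand setting of the counting. Whether reads of genes on opposite strands were kept apart is therefore unknown.

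**Figure D1:**
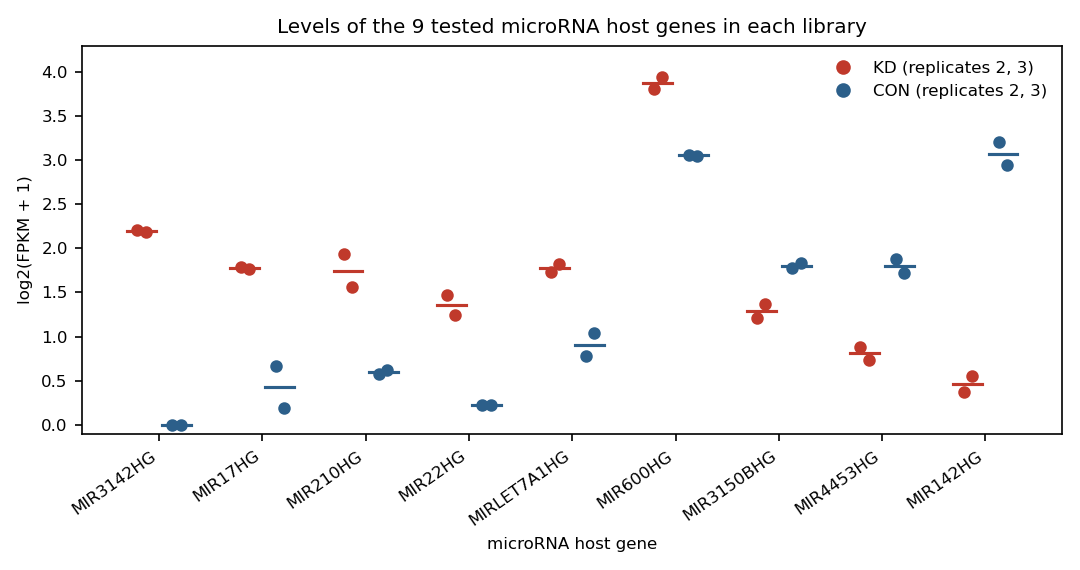
Level of the 9 tested microRNA host genes in each library, as log2(FPKM + 1). Points are libraries, KD on the left and CON on the right of each gene, and bars are group means. The KD points lie above the CON points in 6 hosts and below them in MIR3150BHG, MIR4453HG and MIR142HG.

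The other 34 hosts did not reach the filter. MIR29B2CHG, host of miR-29b-2 and miR-29c, had 0.831 and 1.06 FPKM in KD, against 0.152 and 0.136 FPKM in CON, and MIR4527HG had 1.06 and 0.933 FPKM in KD, against 0.413 and 0.390 FPKM in CON. Both had separate groups. MIR155HG, host of miR-155, had 0.0197 and 0.0223 FPKM in KD, against 0.0436 and 0 FPKM in CON. MIR181A1HG had 0.201 and 0.259 FPKM in KD, against 0.202 and 0.273 FPKM in CON. Both of these overlapped between groups. MIR23AHG reached at most 0.0693 FPKM in any library, MIR4435-2HG 0.0608 FPKM and MIRLET7BHG 0.105 FPKM. With no filter on low values, limma called 9 of 43 hosts higher and 3 lower, beside 8.86% and 9.65% of all 29489 genes, and among them were MIR29B2CHG (adjusted p = 0.0246), MIR3945HG (adjusted p = 0.0317), MIRLET7IHG (adjusted p = 0.0489) and, downward, MIR1302-2HG (adjusted p = 0.0369).

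Promoters of hosts were read from RefSeq (GRCh38.p14, 250 bases before to 50 after the start), where 9 of 10 named hosts had an entry. The 3 shown belong to the host listed only in KD, the hypoxia-linked host and the host with the steepest fall. Capitals mark a match on the strand printed. They are the NF-kB consensus in MIR3142HG, ACGTG, the core of the hypoxia response element, in MIR210HG, and CACGTG, the E-box bound by MYC and MAX, in MIR142HG. The start in RefSeq lies inside the longer GENCODE v29 model of MIR3142HG.
MIR3142HG (chr5:160468001-160468300, plus strand): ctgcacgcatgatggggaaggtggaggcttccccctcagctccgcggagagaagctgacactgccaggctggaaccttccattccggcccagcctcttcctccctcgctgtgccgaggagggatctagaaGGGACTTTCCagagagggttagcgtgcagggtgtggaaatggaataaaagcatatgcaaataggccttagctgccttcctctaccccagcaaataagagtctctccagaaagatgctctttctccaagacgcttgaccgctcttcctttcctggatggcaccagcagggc
MIR210HG (chr11:568408-568707, minus strand): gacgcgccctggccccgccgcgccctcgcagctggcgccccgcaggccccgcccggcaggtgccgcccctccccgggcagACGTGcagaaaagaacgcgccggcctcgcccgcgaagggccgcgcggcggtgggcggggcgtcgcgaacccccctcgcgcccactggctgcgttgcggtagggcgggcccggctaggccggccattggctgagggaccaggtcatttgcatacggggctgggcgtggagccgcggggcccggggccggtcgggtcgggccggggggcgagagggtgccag
MIR142HG (chr17:58332471-58332770, minus strand): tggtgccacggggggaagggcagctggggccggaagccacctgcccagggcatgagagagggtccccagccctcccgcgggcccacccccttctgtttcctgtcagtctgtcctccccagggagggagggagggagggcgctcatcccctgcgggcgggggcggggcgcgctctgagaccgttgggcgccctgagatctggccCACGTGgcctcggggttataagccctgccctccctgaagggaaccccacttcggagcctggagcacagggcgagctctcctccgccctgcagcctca

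The matches begin 120 bases before the start in MIR3142HG, 170 in MIR210HG and 47 in MIR142HG. Searched on both strands over 35116 RefSeq promoters of the same length, the NF-kB consensus was held by 5.91%, ACGTG by 21.4%, CACGTG by 7.26% and the AP-1 site TGANTCA by 7.71%. Of the 9 hosts matched, ACGTG was held by 4 (MIR600HG, MIR210HG, MIR22HG and MIR142HG), CACGTG by MIR142HG, the NF-kB consensus by MIR3142HG and TGANTCA by 0. Every CACGTG also contains ACGTG. These motifs were chosen after the values were seen, and a match is a stretch of letters, not a measured site.

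Hairpins inside dedicated hosts were close to unmeasured. Of 39 precursors listed inside 24 hosts, 34 had a mean under 0.1 FPKM, and the highest mean was 0.438 FPKM. MIR181B1, in an intron of MIR181A1HG, was the highest, with 0.755 and 0.997 FPKM in KD and 0 in both CON libraries, while its host differed by less than the gap between replicates. MIR600 had 0.00928 and 0.0363 FPKM in KD, against 1.47 and 0.0652 FPKM in CON, where a single CON library stood apart.

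Where a hairpin lay in its surrounding gene went with how high it was listed. The 141 precursors inside an exon had a median mean of 0.00328 FPKM, the 40 partly inside an exon 0.0973 FPKM, and the 207 in an intron 0.327 FPKM. The 20 with a listed gene only on the opposite strand had 0.241 FPKM and the 33 in no listed gene 0.298 FPKM. In 152 cases with an exonic or partly exonic precursor and a surrounding gene at 1 FPKM or more, the precursor was at a median of 0.0494% of the surrounding gene's level, and under 1% in 128. In 190 intronic cases the median was 2.42%, with 45 under 1%. Hairpins that are part of the mature surrounding message were thus listed lower than those removed with an intron. No source used here says how the counting shared reads between nested genes, and its part in this order was not tested. Across the 342 cases, levels of precursor and surrounding gene had a Spearman rho of 0.14, a description of genes that share libraries and, in part, a surrounding gene.

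**Figure D2:**
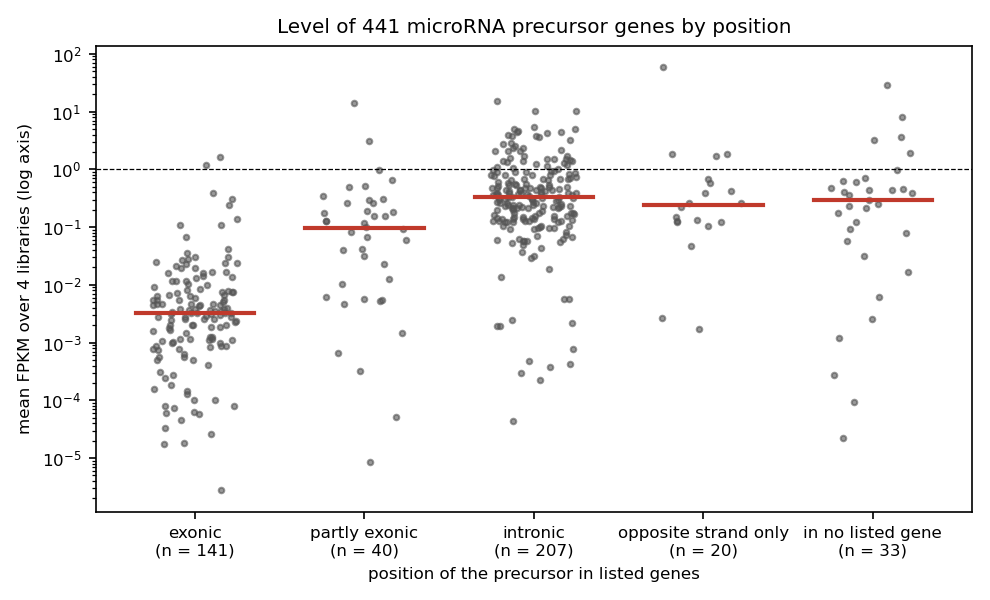
Mean FPKM over the 4 libraries (log axis) of the 441 precursor genes, by position in a listed gene. Points are genes, red bars are medians, and the dashed line is 1 FPKM. Exonic precursors have a median of 0.00328 FPKM and intronic ones 0.327 FPKM.

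Of the 61 tested precursors, 17 rose (27.9%), 12 fell (19.7%) and 32 were not called, beside 27.6% and 31.1% of all tested genes. Intronic precursors made up 46 of them, of which 14 rose and 9 fell. The greatest rises were MIR616, MIR3153 and MIR6775, and the greatest fall was MIR1324.

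MIR616 (chr12:57519163-57519259, minus strand) lies in an intron of DDIT3, which encodes the stress transcription factor CHOP. It had 17.5 and 19.8 FPKM in KD, against 1.44 and 1.59 FPKM in CON, 12.3-fold higher on the means (log2 change 2.96, SE 0.0779, limma adjusted p = 4.72e-05). DDIT3 rose with it, to 133 and 135 FPKM in KD, against 32.0 and 31.6 FPKM in CON (log2 change 2.04, SE 0.0250, limma adjusted p = 8.27e-06). Precursor and surrounding gene thus rose together, the precursor being at 13.9% of the level of DDIT3 in KD and 4.77% in CON.

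MIR3153 (chr9:89312225-89312306, plus strand) is intronic in CKS2, a small subunit of cyclin-dependent kinases. It had 11.0 and 8.64 FPKM in KD, against 0.700 and 1.38 FPKM in CON (log2 change 2.42, SE 0.195, limma adjusted p = 0.000782). CKS2 had 199 and 197 FPKM in KD, against 153 and 155 FPKM in CON, a far smaller rise (log2 change 0.36).

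MIR6775 (chr16:87834592-87834660, minus strand) is intronic in SLC7A5, the light chain of the amino acid transporter LAT1, whose heavy chain is SLC3A2. It had 9.19 and 8.51 FPKM in KD, against 1.03 and 1.33 FPKM in CON (log2 change 2.18, SE 0.0925, limma adjusted p = 0.000174). SLC7A5 itself fell, with 118 and 118 FPKM in KD, against 289 and 292 FPKM in CON (log2 change -1.29, SE 0.0201, limma adjusted p = 1.57e-05). The hairpin and the gene that holds it therefore changed in opposite directions, each with separate groups.

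Further intronic precursors rose. MIR6832, inside PRRC2A, had 2.17 and 3.56 FPKM in KD, against 0.111 and 0.412 FPKM in CON (log2 change 1.60, limma adjusted p = 0.0036). MIR6807, inside the transcriptional corepressor TRIM28, had 2.42 and 4.71 FPKM in KD, against 0.740 and 0.559 FPKM in CON (log2 change 1.42, limma adjusted p = 0.00824). Both passed the filter only through KD, as did MIR6515 and MIR6848, and MIR6807 lost its call with no filter. MIR4639, inside MYLIP, a ubiquitin ligase of the LDL receptor, had 4.43 and 7.42 FPKM in KD, against 1.20 and 2.60 FPKM in CON (log2 change 1.27, limma adjusted p = 0.0221). Its call was lost with no filter, without KD replicate 3 and without CON replicate 2, whereas MYLIP rose under each alternative that tested it (log2 change 1.79, SE 0.0304, limma adjusted p = 1.62e-05). MIR4292, inside RABL6, had 3.99 and 5.47 FPKM in KD, against 0.662 and 2.54 FPKM in CON (log2 change 1.23, limma adjusted p = 0.0416), and lost its call with a pseudocount of 0.1, with no filter and without either KD replicate. MIR6848, partly inside an exon of DGAT1, an enzyme of triglyceride synthesis, had 4.98 and 5.76 FPKM in KD, against 0.798 and 0.914 FPKM in CON (log2 change 1.78, limma adjusted p = 0.000286). DGAT1 rose less (log2 change 0.45).

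Some called precursors cannot be placed with confidence, because their reads may be shared with near-identical copies or because no gene of the table surrounds them. MIR3648-1 had 22.9 and 26.1 FPKM in KD, against 4.29 and 7.47 FPKM in CON (log2 change 1.93, limma adjusted p = 0.00231), and its copy MIR3648-2 had 10.9 and 12.7 FPKM in KD, against 2.78 and 5.44 FPKM in CON (log2 change 1.37, limma adjusted p = 0.0097, lost with no filter). The 4 numbered copies of MIR6724, also on chromosome 21, were at 0.469 to 0.914 FPKM in KD and 0.0339 to 0.283 FPKM in CON, untested. MIR5195 (chr14:106850885-106850999, minus strand), in the region of the immunoglobulin heavy chain segments, had 34.3 and 45.1 FPKM in KD, against 19.8 and 15.1 FPKM in CON (log2 change 1.14, SE 0.174, limma adjusted p = 0.00488).

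MIR1324 (chr3:75630763-75630858, plus strand), partly inside an exon of the pseudogene CLUHP10, had 0.498 and 0.629 FPKM in KD, against 28.98 and 26.85 FPKM in CON. It was 49.5-fold lower on the means, and no library of KD came near CON (log2 change -4.21, SE 0.0720, limma adjusted p = 1.62e-05). CLUHP10 fell with it, to 0.137 and 0.139 FPKM in KD, against 9.18 and 8.57 FPKM in CON (log2 change -3.12, limma adjusted p = 3.95e-05). Precursor and pseudogene were both under 1 FPKM in both KD libraries.

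Smaller falls were called in 6 further named precursors. MIR4489, inside SIPA1, a regulator of the small GTPase Rap, had 0.423 and 0.199 FPKM in KD, against 2.81 and 1.93 FPKM in CON (log2 change -1.35, limma adjusted p = 0.00289). MIR4324, inside SLC6A16, had 0.157 and 0.105 FPKM in KD, against 1.45 and 1.53 FPKM in CON (log2 change -1.14, limma adjusted p = 0.00136). MIR3176, inside CAPN15, had 1.21 and 0.848 FPKM in KD, against 2.94 and 3.74 FPKM in CON (log2 change -1.10, limma adjusted p = 0.00292). MIR4489 and MIR4324 passed the filter only through CON, as did MIR1324, MIR4690, MIR658 and MIR6802. MIR4477B, in no listed gene, had 1.49 and 1.98 FPKM in KD, against 5.35 and 5.48 FPKM in CON (log2 change -1.23, limma adjusted p = 0.000905). MIR4520-1, opposite C17orf100, had 1.22 and 0.347 FPKM in KD, against 2.37 and 3.55 FPKM in CON (log2 change -1.18, limma adjusted p = 0.0201, lost with no filter and without CON replicate 3). MIR6835, inside the chromatin protein gene HMGA1, had 2.85 and 2.98 FPKM in KD, against 5.37 and 8.64 FPKM in CON (log2 change -1.0004, limma adjusted p = 0.0115, lost with no filter and without KD replicate 2).

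The most abundant precursors outside these calls were MIR1244-2 and MIR570. MIR1244-2 had 60.4 and 66.6 FPKM in KD, against 59.0 and 53.6 FPKM in CON, and was not called (log2 change 0.17, SE 0.0671, limma adjusted p = 0.0816). Its copies MIR1244-1, MIR1244-3 and MIR1244-4 were far lower, and reads between copies may be shared. MIR570, inside the noncoding MUC20-OT1, had 9.95 and 11.1 FPKM in KD, against 11.1 and 9.27 FPKM in CON, overlapping groups (log2 change 0.04, SE 0.0996, limma adjusted p = 0.725).

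**Figure D3:**
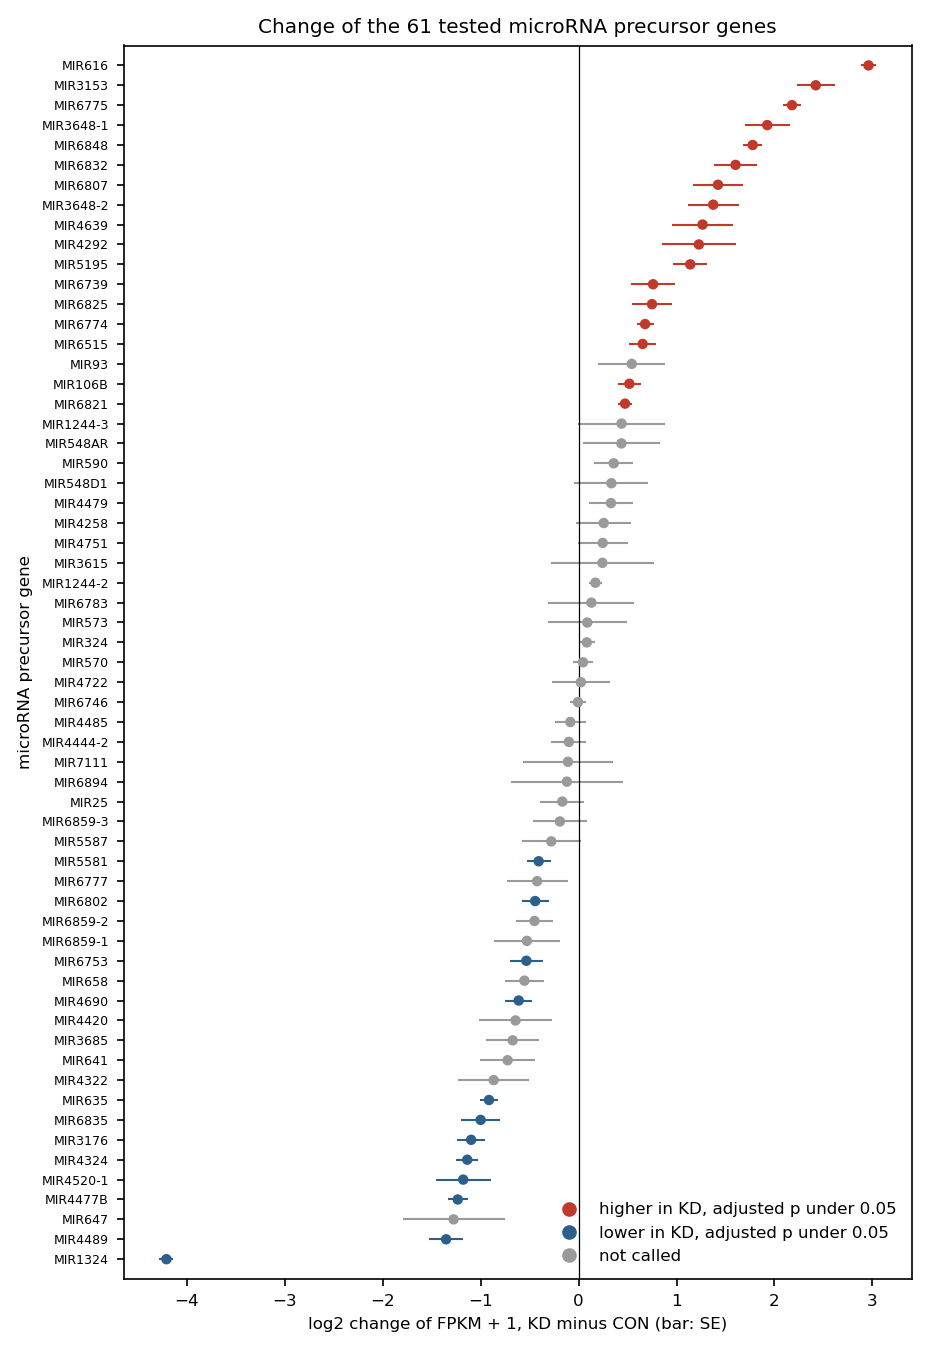
Log2 change of FPKM + 1 (KD minus CON) of the 61 tested precursor genes, with the SE as a bar. Red marks the 17 higher in KD, blue the 12 lower in KD and grey the 32 not called at adjusted p under 0.05. MIR616 stands at 2.96 and MIR1324 at -4.21.

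Seeds were compared between the tested precursors. Among tested precursors 5 seeds were shared, by 9 precursors in all. MIR3153 and MIR6739 share GGGAAAG and both rose, MIR6739 by 0.76 on the log2 scale (limma adjusted p = 0.0379). MIR635 and MIR6774 share CUUGGGC, yet MIR6774, inside the B cell factor IRF8, rose (log2 change 0.68, limma adjusted p = 0.00296) and MIR635 fell (log2 change -0.92, limma adjusted p = 0.0014). The MIR6859 copies share both their seeds and were not called. These precursors, and those of the next paragraphs that lie under a change of 1, were chosen after their values were seen.

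The cluster inside MCM7, a subunit of the replicative helicase, has seeds in common with the cluster of MIR17HG. MIR106B had 1.77 and 1.67 FPKM in KD, against 0.762 and 1.05 FPKM in CON (log2 change 0.52, SE 0.115, limma adjusted p = 0.0157), a call lost with no filter and in 3 of the 4 fits that leave out a library. MIR93 had 2.19 and 0.900 FPKM in KD, against 1.15 and 0.330 FPKM in CON, and MIR25 had 4.53 and 2.52 FPKM in KD, against 4.21 and 3.70 FPKM in CON, with overlapping groups and no call. MCM7 fell, with 83.0 and 80.9 FPKM in KD, against 102 and 102 FPKM in CON (log2 change -0.31, limma adjusted p = 0.000793).

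Each precursor was then set against the gene that holds it on the same strand. The difference of the log2(FPKM + 1) changes, precursor minus surrounding gene, was fitted with limma over all 374 nested pairs of the table in which both genes passed the filter, and 48 pairs had a microRNA precursor, 44 of them intronic. The fit called 8 of the 48 (16.7%), beside 9.63% of all pairs, with 6 precursors changing more upward than the surrounding gene and 2 more downward on this scale (5.88% and 3.74% of all pairs), and 20 of 48 had an unadjusted p under 0.05. Among the called pairs, the precursors MIR6832 and MIR6848 passed the filter only through KD, and MIR4489 and MIR1324 only through CON. MIR3153 needed its KD libraries to pass. The differences of these pairs are not independent of the filter, and the share called is a description. The median difference was -0.01 in microRNA pairs and 0.03 in all pairs. Without KD replicate 2 or KD replicate 3 the fit called 0 of 48 (a lone KD library is then assumed to vary as the CON libraries do), without CON replicate 2 it called 4, and without CON replicate 3 it called 6.

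MIR6775 against SLC7A5 gave the greatest difference, 3.47 on the log2 scale (SE 0.224, limma adjusted p = 0.00801). The precursor stood at 7.50% of the level of SLC7A5 in KD and at 0.405% in CON. MIR3153 against CKS2 differed by 2.06 (SE 0.278, limma adjusted p = 0.0288), the precursor being at 4.97% of CKS2 in KD and 0.676% in CON. MIR6832 against PRRC2A differed by 1.83 (SE 0.289, limma adjusted p = 0.033), with 5.13% in KD and 0.397% in CON. In these pairs the hairpin gained on a message that fell or rose little.

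MIR4751 against ATF5, a transcription factor of the amino acid stress response, was called although the precursor was not. The exonic precursor had 1.16 and 2.63 FPKM in KD, against 1.47 and 1.26 FPKM in CON, overlapping groups, while ATF5 fell to 103 and 94.5 FPKM in KD, against 394 and 385 FPKM in CON. The difference was 2.22 (SE 0.362, limma adjusted p = 0.0341) and was also lost with a pseudocount of 0.1. MIR6848 against DGAT1 differed by 1.32 (SE 0.191, limma adjusted p = 0.0288), and MIR3648-1 against the unnamed gene ENSG00000278996 by 2.26 (SE 0.360, limma adjusted p = 0.033), a copy-rich locus where the precursor exceeded the gene around it. The call of MIR3648-1 against that gene was also lost with no filter on low values.

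Downward, MIR4489 differed from SIPA1 by -1.25 (SE 0.242, limma adjusted p = 0.0462), with the precursor at 0.997% of SIPA1 in KD and 7.06% in CON. MIR1324 differed from CLUHP10 by -1.09 (SE 0.180, limma adjusted p = 0.0341), a difference that was lost with a pseudocount of 0.1. On plain FPKM the order was the reverse, the precursor being at 408% of CLUHP10 in KD and 315% in CON, so the downward direction belongs to the log2(FPKM + 1) scale only. MIR616 differed from DDIT3 by 0.92 (SE 0.199, limma adjusted p = 0.0558) and was not called.

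Across the 48 pairs the precursor's change and the surrounding gene's change had the same sign in 29. Pearson's r was 0.54 and Spearman's rho 0.34, given as a description of pairs from the same 4 libraries, some of which share a surrounding gene. Of 25 pairs with a called precursor, precursor and surrounding gene both rose in 8 and both fell in 7. The precursor rose and the surrounding gene fell in 4, the reverse held in 1, and the surrounding gene was not called in 5 (3 with a risen and 2 with a fallen precursor). Members of the concordant pairs included MIR6774 with IRF8 and MIR6821 with the kinase gene PIM3. Their precursor changes of 0.68 and 0.47 stood beside changes of 0.60 and 0.56 in the surrounding genes, all on the log2(FPKM + 1) scale.

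**Figure D4:**
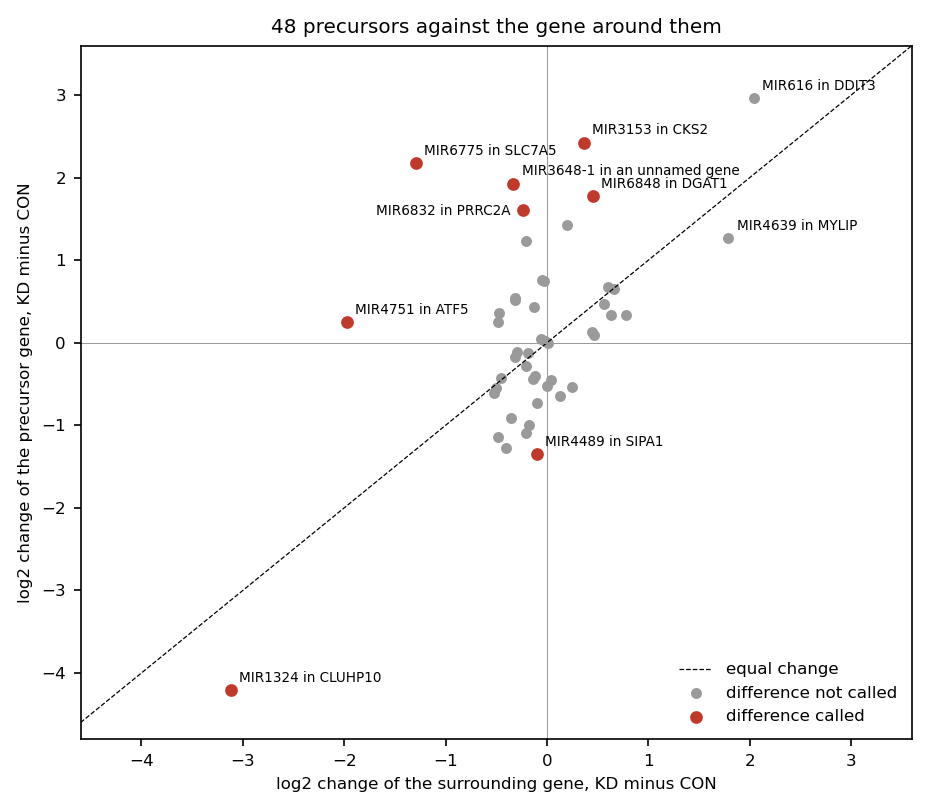
Log2 change (KD minus CON) of 48 tested precursors against that of the gene around them. Red points are the 8 pairs whose difference was called, grey the others, and the dashed line marks equal change. MIR6775 lies at 2.18 while SLC7A5 lies at -1.29, and MIR616 lies at 2.96 where DDIT3 lies at 2.04.

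Below the filter, 414 members were not tested. Both KD libraries lay above both CON libraries in 103 (24.9%), beside 23.3% of all untested genes listed in at least 2 libraries, and below them in 90 (21.7%), beside 27.4%. The groups overlapped in 221. A value in both KD libraries with 0 in both CON libraries was held by 27 members (5.58%), beside 2.75% of all genes listed in at least 2 libraries, and the reverse by 34 (7.02%), beside 3.35%. After MIR3142HG and MIR181B1, the members of this kind with the highest means were MIR331, with 1.34 and 0.399 FPKM in KD and 0 in CON, MIR760, with 0 in KD and 0.516 and 1.20 FPKM in CON, and MIR6803, inside PPP6R1, with 0 in KD and 1.09 and 0.461 FPKM in CON. A 0 in an FPKM table can be a failed estimate, and no fold is given.

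The genes of microRNA processing and silencing were read from the same fit. Of 50 listed genes 49 had values and 44 were tested, of which 15 rose, 13 fell and 16 were not called, beside 27.6% and 31.1% of all tested genes. Their median log2 change was -0.01. Among the core enzymes, DROSHA rose and DGCR8 fell, and DICER1, XPO5 and AGO2 were not called. DROSHA had 9.85 and 9.82 FPKM in KD, against 7.52 and 7.01 FPKM in CON (log2 change 0.39, SE 0.0521, limma adjusted p = 0.00323). Its partner DGCR8 moved the other way, with 3.31 and 2.62 FPKM in KD, against 6.13 and 5.83 FPKM in CON (log2 change -0.82, SE 0.0999, limma adjusted p = 0.00248). Both had separate groups, so the messages of these Microprocessor subunits moved in opposite directions. DICER1 had 2.96 and 2.70 FPKM in KD, against 2.95 and 2.83 FPKM in CON. XPO5 had 8.88 and 8.77 FPKM in KD, against 7.99 and 8.37 FPKM in CON, and AGO2 12.4 and 12.6 FPKM in KD, against 12.6 and 13.6 FPKM in CON. Their log2 changes were -0.02 for DICER1, 0.10 for XPO5 and -0.06 for AGO2.

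Microprocessor cofactors held the greatest changes. ERH, a small partner of DGCR8, fell to 71.3 and 81.5 FPKM in KD, against 154 and 158 FPKM in CON (log2 change -1.02). SAFB2, which together with ERH aids the processing of clustered hairpins, rose to 15.7 and 15.2 FPKM in KD, against 6.43 and 6.54 FPKM in CON (log2 change 1.14), and its relative SAFB rose by 0.60. The helicase DDX17 fell by 0.71 on the log2 scale while its relative DDX5 rose by 0.32. GEMIN4, an Argonaute-associated protein of the SMN complex, fell by 0.62, the RNA helicase DDX3X rose by 0.55 and the deadenylase subunit PAN3 rose by 0.54. The limma adjusted p-values of these 8 genes were at most 0.00195.

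**Figure D5:**
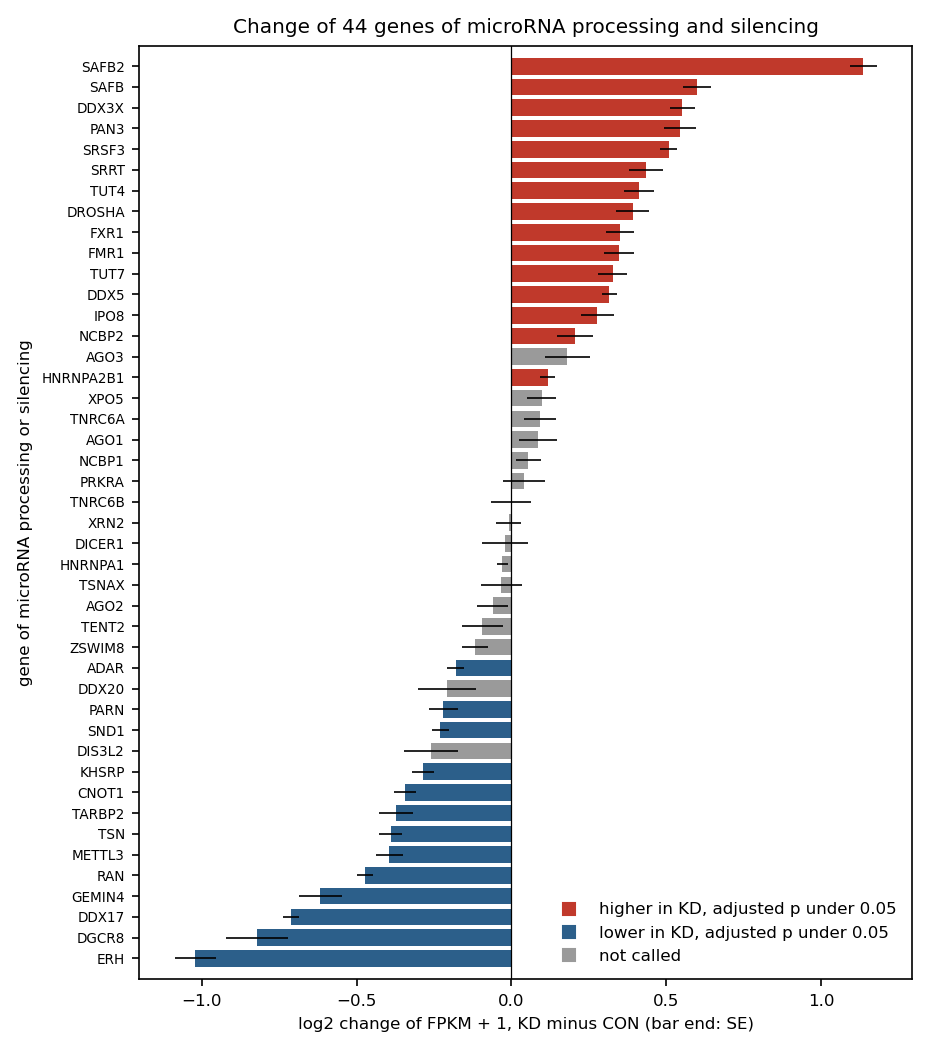
Log2 change of FPKM + 1 (KD minus CON) of the 44 tested genes of microRNA processing and silencing, with the SE at the bar's end. Red marks the 15 higher in KD, blue the 13 lower in KD and grey the 16 not called. SAFB2 stands at 1.14 and ERH at -1.02.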

How the data were processed

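Poly(A) RNA of SU-DHL-4 cells labelled KD and CON was sequenced with dUTP marking of the second strand, per the labels' protocols. Tools named in the submitters' processing notes, without version or role, are HISAT2, StringTie, fastp and edgeR, and the build is GRCh38. Both the strand setting and the annotation release remain not given in the sources used here. The authors deposited FPKM per gene and sample, per the file headers. FPKM are not counts, the depth is unknown, and a rise of abundant genes lowers all other values.

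The model was limma 3.58.1 under R 4.3.3, run on log2(FPKM + 1) with a trended prior and no term besides group. Tests were two-sided and p-values were adjusted by Benjamini-Hochberg, with 0.05 as the threshold. A change on this scale understates that of low genes. There were 2 residual and 2.85 prior degrees of freedom. An exact permutation test of 2 against 2 libraries cannot go below p = 0.333 and was not used. The filter asked for 1 FPKM in 2 or more of the 4 libraries. The replicate 1 columns were left out, because they are multiples of the mean of the other libraries (ZHX2 in CON was the exception), and entered as an alternative. Scripts were tested on simulated data. Positions come from GENCODE v29 (GRCh38), matched by Ensembl identifier for all 484 members, and sequences from RefSeq (GRCh38.p14). Summaries used Python 3.11.15 with pandas 2.3.3.

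The members, gene lists and tests were chosen with earlier results of these data known. Named genes are every member called with a log2 change of at least 1 in size, the 10 most abundant hosts and the 10 most abundant precursors, a list of well-known hosts, up to 5 members listed in a single group, the extreme and core genes of the processing list, and the gene around each named precursor. Other genes in the text were chosen after their values were seen. MIR34AHG and MIR222HG of the list of hosts were not members. Alternatives were another pseudocount, no filter and a stricter filter on low values, median-ratio and quantile scaling, all 6 columns, a replicate block and leaving out each library.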

Additional observations from a re-analysis of the deposited data

How the results depend on the processing

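Among 11 alternatives, the counts of members moved by over 1.5 times under a mean of at least 5 FPKM, where 10 members were left and 7 were called higher and 1 lower, and with all 6 columns, where 25 were called lower. The count of called pairs of precursor and surrounding gene moved most. It went from 8 of 48 to 60 of 410 with no filter. At a mean of at least 5 FPKM it was 3 of 3. Both filters also changed how many pairs were tested. With all 6 columns it was 22 of the same 48. Leaving out a library gave 0 to 6 called pairs, 19 to 24 members higher and 11 to 16 lower, and 12 to 15 processing genes higher and 12 to 14 lower. Scaling moved the median of all tested genes from -0.022 to 0.0038 at most. Of 300 checks of the 29 tested named members over the alternatives, 282 kept direction and call, 15 lost the call, 1 gained it and 2 changed sign, both of MIR570, which was never called (-0.0285 without KD replicate 3, -0.0763 without CON replicate 3, and up to 0.1658 without CON replicate 2). The stricter filter tests fewer genes and the 6 columns add no measurement; for other changes the cause was not tested.

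No effect shared by libraries of the same replicate number was seen. Across tested genes, deviations of KD replicate 2 and CON replicate 2 from their group means had a correlation of 0.0047. This cannot show whether the libraries were prepared in pairs. With the replicate block, limma called 23 members higher and 17 lower, 9 pairs, 15 processing genes higher and 13 lower, and 3068 and 3514 of all genes. With 2 libraries a group and unknown depth, small changes of low precursors could not be resolved.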
